A study of Arabidopsis thaliana with 24 samples.

Results

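The probe sets described here carry transcripts that light raised in wild-type Arabidopsis seedlings and that stayed lower in both the fc2 and the flu mutants. They were chosen on group means of log2 signal. A member had to be at least 1 higher in wt after 120 min of light than in wt kept dark, and at least 1 lower in both fc2 and flu than in wt at 120 min. A log2 difference of 1 is a 2-fold change. The rule found 248 members among the 22217 probe sets of the array. By the first condition alone, 976 probe sets (4.39%) were induced in wt. Of these, 503 were within 1 of wt or above it in both mutants, 216 were at least 1 lower in flu alone and 9 in fc2 alone. The 216 were not all at the wt level in fc2, which was below wt in 194 of them (median difference -0.5325). In flu 25 of the 216 still rose by at least 1 over darkness. Among the members 119 probe sets named 1 gene each, 2 named several genes and 127 had no gene listed in the annotation used. Genes are named below by symbol where the annotation holds one other than the locus, which was the case for 15 members, and otherwise by locus identifier.

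The samples were whole 4-day-old seedlings of the Col-0 accession grown without light at 22 °C and then lit with 120 µmol m-2 s-1 for 0, 30 or 120 min. The 4 lines, each with 2 arrays per time (24 arrays, 12 groups), were fc2-1 (fc2 below), flu, fc1-1 (fc1) and the wild type (wt). The labels call the 2 arrays biological replicates and say no more about their origin. All p-values therefore measure the spread between these arrays alone, and precision is limited by their small number. No probe set named FC1, FC2 or FLU alone, so the genotype labels could not be checked on the mutated genes. Because whole seedlings were sampled, fewer cells of a type and less RNA per cell cannot be told apart.

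Light triggers the greening of a seedling that has grown in the dark. It starts chlorophyll synthesis, the assembly of the photosynthetic apparatus and the making of protective flavonoids. Chlorophyll and haem share the tetrapyrrole pathway, in which ferrochelatases put iron into protoporphyrin IX to make haem. FC1 and FC2 are the plastid ferrochelatases, and FLU is a plastid protein that restrains the first steps of the pathway in the dark. Without FLU, protochlorophyllide builds up in the dark, and free tetrapyrroles make singlet oxygen when lit.

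PORB, a protochlorophyllide oxidoreductase taken as a marker of dark-grown cotyledons, was between 12.83 and 13.15 on the 8 dark arrays. It was still 12.77 to 13.03 in wt, fc2 and fc1 after 30 min of light, so a high level alone does not mark the dark state. In flu it was already 11.89 and 11.38 at 30 min. At 120 min it was 12.35 and 12.31 in fc2, 9.44 and 9.38 in flu, 11.11 and 11.32 in fc1, and 10.61 and 10.88 in wt. The root expansin markers EXPA7 and EXPA18, the 2 of 4 root markers measured, had mean levels between 4.66 and 5.93 over the 24 arrays. The mean of 4 genes of seed maturation (OLEO3, PAP85, M10 and M17) differed between arrays of a group. In lit wt seedlings at 120 min it was 5.50 and 7.88, and in fc1 at 120 min it was 7.64 and 5.29. At 30 min it was 7.95 and 5.58 in fc2, 9.28 and 9.02 in flu, 8.84 and 5.57 in fc1, and 8.55 and 8.79 in wt. Its part in the results was not tested beyond the counts given with it as a covariate.

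The 4 arrays of lit fc2 and flu stood clearly apart from those of fc1 and wt over the members, as the rule required for fc2, flu and wt. After 120 min the median member signal was 7.1 and 7.205 in fc2, 5.7 and 5.64 in flu, 8.78 and 8.8 in fc1, and 8.875 and 8.51 in wt. In darkness the medians were 6.845 and 6.88 in fc2, 6.87 and 6.91 in flu, 6.455 and 6.5 in fc1, and 6.69 and 6.71 in wt. The fc2 median thus lay close to its own dark value at 120 min and the flu median lay below it. Both wt arrays were above all 4 fc2 and flu arrays in each of the 248 members. The rule chose members for high wt and low fc2 and flu means on these arrays, so nothing is read from this count. Replicate values of a member differed by a median of 0.07 to 0.25 over the 12 groups, most in wt at 120 min, where the largest difference was 2.07. That wt group set which probe sets were members. The rule gave 203 probe sets without its replicate 1, of which 189 were among the 248, and 330 without its replicate 2, of which 233 were.

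**Figure D1:**
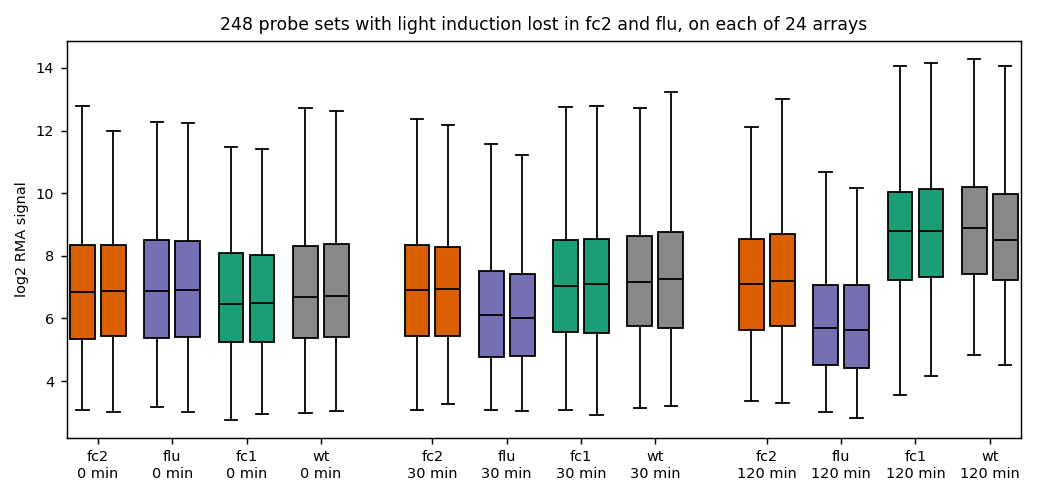
Log2 RMA signal of the 248 members on each of the 24 arrays, as boxes (median, quartiles, whiskers to the last value within 1.5 times the box) coloured by genotype, for 0, 30 and 120 min of light. The fc1 and wt boxes at 120 min lie above all others (medians 8.51 to 8.875), and both flu boxes at 120 min lie lowest (medians 5.64 and 5.7).

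The size of the difference varied widely among members, and these values describe the choice and carry no test. The wt rise had a median of 1.70 and reached 5.9. The fc2 level was below wt at 120 min by a median of 1.385 on the log2 scale, with a lowest difference of -3.365, while 1.74% of all probe sets were at least 1 lower there. For flu the median difference from wt was -2.7425 and the lowest -5.82, against 8.42% of all probe sets at least 1 lower. The flu mean was below the fc2 mean in 236 of 248 members, beside 9179 of all 22217 probe sets. It was at least 1 below it in 143 members, against 6.49% of all probe sets, and at least 1 above it in 0, against 3.2%.

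Relative to its own dark level, fc2 at 120 min was within 1 for 215 members, with a median difference of 0.1325. Over all probe sets 20998 of 22217 were within 1, so staying near the dark level is not particular to the members. The fc2 level was at least 1 above dark for 32 members (4.3% of all probe sets) and at least 1 below for 1 (1.19%), which has no listed gene. In flu the median difference from dark was -0.945, and 208 members were below their dark level, beside 10722 of all 22217 probe sets. Of the 208 members, 120 were at least 1 below (8.89% of all probe sets), while 6 members were at least 1 above dark (8.48%). Only 2 of those 6 name a gene, AT3G52740 and AT1G23205. Named after these values were seen, AT3G52740 was higher by 1.28 and AT1G23205 by 1.065 in flu at 120 min than in dark flu.

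**Figure D2:**
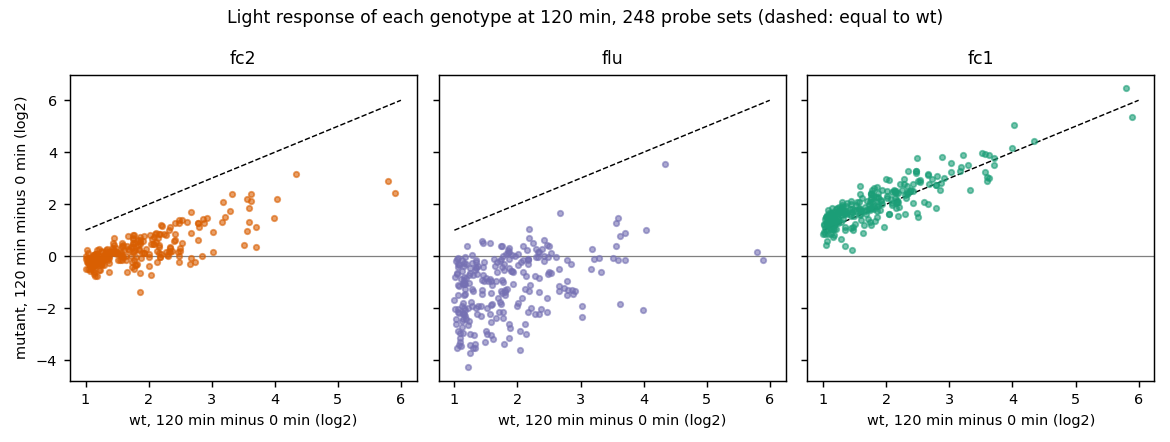
Log2 difference between 120 and 0 min of light in fc2, flu and fc1 (vertical axes) against the same difference in wt (horizontal axes), 1 point per member, with a dashed line where mutant and wt are equal. All 248 points lie well under the line in fc2 and flu, many of them below 0 in flu (208), and they scatter about the line in fc1, where the median share of the wt rise was 112.7%.

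The deepest combined shortfalls were those of AT1G60590 and AT5G42760, 2 loci for which the annotation gives no product. At 120 min AT1G60590 had 6.34 and 5.84 in fc2, 3.23 and 3.65 in flu, 8.65 and 8.83 in fc1, and 9.53 and 8.99 in wt. Its dark level lay between 3.35 and 3.67 on all 8 dark arrays, so the flu arrays had not left the dark range by much while fc2 had come part of the way. AT5G42760 had 6.69 and 6.74 in fc2, 4.25 and 4.31 in flu, 10.11 and 10.26 in fc1, and 9.99 and 9.86 in wt. Here too fc2 stood between flu and the pair of fc1 and wt, with no overlap.

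In other members fc2 stayed near the dark level. AT2G27420 at 120 min had 3.45 and 3.58 in fc2, 3.02 and 3.33 in flu, 6.49 and 7.34 in fc1, and 7.29 and 6.47 in wt, after 3.08 to 3.32 on the 8 dark arrays. AT1G76110 at 120 min had 4.92 and 4.5 in fc2, 3.81 and 3.36 in flu, 7.62 and 7.54 in fc1, and 7.72 and 7.1 in wt, and its dark levels were 4.59 to 4.99. The fc1 and wt arrays overlapped in both genes and were far above the other 4.

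Another form of the pattern was a flu level far below its dark level. AT1G27480 in flu went through 7.43 and 7.78 in darkness, 5.45 and 4.88 at 30 min, and 4.13 and 3.61 at 120 min. AT1G15290 at 120 min had 8.02 and 7.93 in fc2, 5.68 and 4.72 in flu, 10.14 and 10.36 in fc1, and 10.25 and 9.55 in wt, against a dark range of 7.79 to 8.13. AT5G55620 at 120 min had 8.23 and 8.51 in fc2, 5.65 and 5.14 in flu, 10.37 and 10.65 in fc1, and 10.28 and 10.08 in wt, and its dark range was 8.1 to 8.61. In these 3 genes flu had lost signal that the dark seedling already held, and fc2 sat near the dark level. AT1G65230, AT3G48200 and AT4G24700 were the remaining unannotated loci among the 12 largest shortfalls of probe sets naming 1 gene, together with AT5G47330, with flu minus wt differences of -4.755, -4.59, -3.685 and -3.905 in that order.

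**Figure D3:**
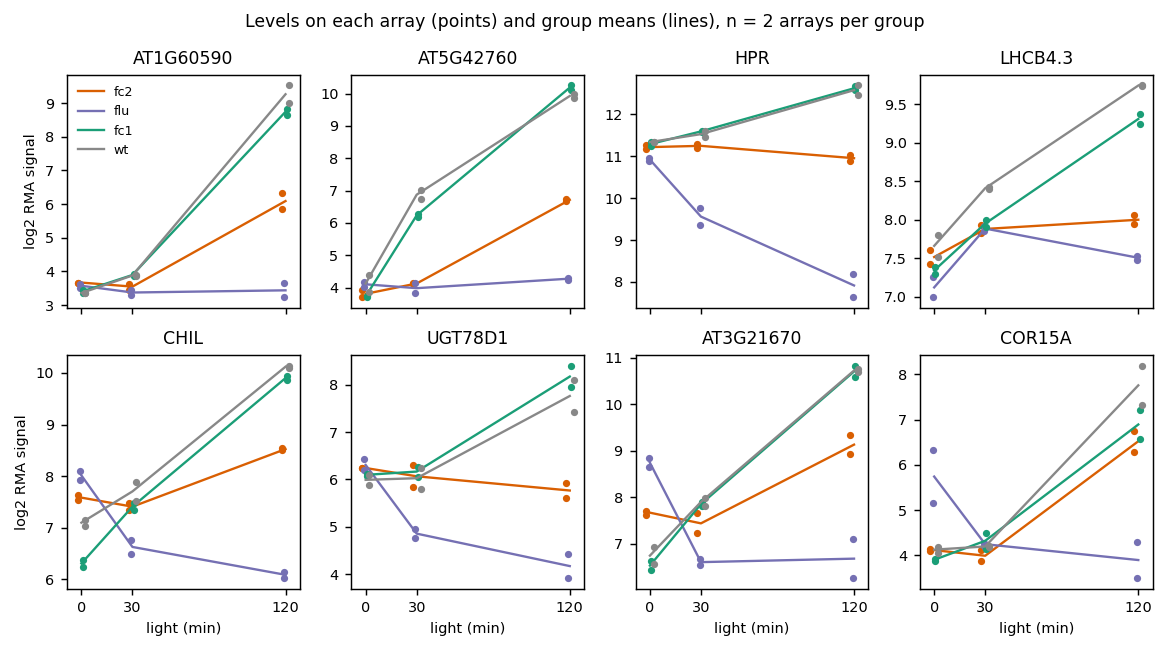
Log2 RMA signal of 8 members against minutes of light, with 1 point per array and lines through the means of the 2 arrays of fc2, flu, fc1 and wt. At 120 min the flu line ends lowest in each panel and the fc2 line ends between it and the fc1 line, which ends near wt except for COR15A, the one panel in which fc1 and fc2 arrays overlap at 120 min (6.56 in fc1 and 6.75 in fc2).

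The fc1 arrays were not used in choosing the members, and they showed nearly all of them rising in light. In fc1 at 120 min against dark fc1, 245 of 248 members were higher at an adjusted p under 0.05 in limma over all probe sets, and 0 were lower. Over all probe sets 15.3% were higher and 19.1% lower. Among the other light-induced probe sets, 497 of the 503 kept in both mutants were higher in fc1 too. So were 212 of the 216 at least 1 lower than wt in flu alone and all 9 at least 1 lower in fc2 alone. The fc1 rise is therefore not particular to the members. At an unadjusted p under 0.05 the number was 246 members in either direction, beside 9226 of all 22217 probe sets. All 248 differences were above 0, beside 10837 over all probe sets. A rise of at least 1 was seen in 234 members, against 5.47% of all probe sets. The median rise was 1.85, with a range of 0.225 to 6.455, beside a median of -0.005 over all probe sets. Seed-maturation signal averaged 7.64 and 5.29 in lit fc1, against 8.31 and 8.43 in dark fc1, and with it as a covariate the count was 245 again.

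AT5G42760 had the largest rise in fc1. It measured 10.11 and 10.26 after 120 min, against 3.71 and 3.75 in dark fc1, a difference of 6.455 ± 0.14 (SE, n = 2 arrays per group; limma adjusted p = 2.623e-15). AT1G60590 rose by 5.34 ± 0.17 (limma adjusted p = 2.102e-13). AT3G21670, whose synonym NPF6.4 places it in the nitrate and peptide transporter family, had 10.83 and 10.58 in lit fc1, against 6.43 and 6.62 in dark fc1 (4.18 ± 0.21, limma adjusted p = 4.098e-11). AT3G52740 rose by 3.92 ± 0.14 (limma adjusted p = 5.573e-13). None of the 4 had overlapping arrays between lit and dark fc1.

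The 3 members not called in fc1 were AT4G26790 and 2 probe sets with no listed gene. AT4G26790 had 3.57 and 4.16 in lit fc1, against 3.33 and 3.59 in dark fc1, and it had 5.17 and 4.81 in lit wt. Its difference in fc1 was 0.405 ± 0.21 (limma adjusted p = 0.1629), and the lit and dark arrays overlapped. The probe sets with no gene gave 0.225 (limma adjusted p = 0.465) and 0.42 (limma adjusted p = 0.05652). The smallest called rises of named genes were 0.585 in AT5G15780, 0.655 in AT4G04750 and 0.81 in AT5G11070. AT5G15780 lost its call without either fc1 array at 120 min (limma adjusted p = 0.06918 and 0.06075) and without replicate 2 of dark fc1 (0.1405).

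Set beside wt, the fc1 level at 120 min differed little, and this comparison is a description because the rule used the wt arrays. The median difference was 0.0075, the range -1.125 to 1.065, and 211 of 248 members lay within 0.5. Over all probe sets 20158 of 22217 lay within 0.5, so this closeness is not particular to the members. In 4 members fc1 was at least 1 lower (0.279% of all probe sets), among them AT2G25510 and AT4G26790, and in 1 it was at least 1 higher (0.855%). The fc1 mean exceeded both the fc2 and the flu means in 246 members. Both fc1 arrays exceeded all 4 fc2 and flu arrays in 242 members, against 20.9% of all probe sets, but the members were chosen for low values on those 4 arrays, so nothing is read from this count. In darkness fc1 was below wt by a median of 0.21 over the members (-0.21, beside -0.04 over all probe sets).

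Most of the rise in fc1 came after the first 30 min. At 120 min against 30 min of light in fc1, 240 of 248 members were higher and 0 lower, against 12.9% and 13.6% of all probe sets, with a median of 1.485. At 30 min against darkness in fc1, 80 members were higher and 4 lower, against 3.68% and 3.55% of all probe sets, with a median of 0.3125. In wt the same 30 min difference had a median of 0.2725 and was at least 1 in 26 members (1.29% of all probe sets), and the median between 30 and 120 min was 1.315.

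Few members were called in fc2 after 30 min of light. In fc2 at 30 min against dark fc2, 7 members were higher and 7 lower, against 1.92% and 1.1% of all probe sets, with a median of 0.0225. At an unadjusted p under 0.05, 41 of 248 members differed, beside 2241 of all 22217 probe sets. None of the 7 higher probe sets names a gene, and of the 7 lower ones AT4G24780, AT1G28600 and AT2G22420 do, with differences of -0.525, -0.45 and -0.60. These counts were small and rested on every array of the comparison: only 2 members were called when replicate 2 of dark fc2 was left out, and 3 when its replicate 1 or either array at 30 min was. With the seed-maturation mean (7.95 and 5.58 in fc2 at 30 min, 5.84 and 5.85 in dark fc2) as a covariate, 9 were called.

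In flu 166 of the 248 members fell within 30 min. Against dark flu, 166 members were lower at 30 min and 11 higher, against 23.8% and 24.2% of all probe sets, with a median of -0.675 beside 0.06 over all probe sets. AT5G55620 had 5.31 and 4.58 in flu at 30 min, against 8.44 and 8.44 in dark flu, a fall of 3.495 ± 0.19 (limma adjusted p = 6.102e-10). AT1G27480 fell by 2.44 ± 0.19 (limma adjusted p = 2.708e-08), AT1G65230 by 2.36 and AT3G21670 by 2.14. Of the 11 members higher in flu at 30 min, LHCB4.3, AT1G23205, AT5G01015, AT2G36470 and AT2G25510 name a gene. The 216 light-induced probe sets at least 1 lower than wt in flu alone gave similar flu counts, 15 higher and 134 lower. In fc2 28 of them were higher and 2 lower at 30 min than in darkness. Among the 503 that both mutants kept, 305 were higher and 44 lower in flu, and 191 were higher and 0 lower in fc2. The differences between these counts and those of the members were not tested.

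Against wt at 30 min, the shortfall was already called for most members in flu and for fewer in fc2. These 3 comparisons share the 2 wt arrays. In flu 187 members were lower and 2 higher, against 19% and 21.4% of all probe sets, with a median of -0.965 beside 0.07 over all probe sets. In fc2 46 were lower and 0 higher, against 0.986% and 0.531%, with a median of -0.2325 beside -0.01. Of the 216 probe sets lost in flu alone, 171 were called lower in flu, a share of 79.2% beside 75.4% of the members. In fc2 41 of the 216 were called lower, a share of 19% beside 18.5% of the members, and so were 54 of the 503 kept ones (10.7%). The fc2 count was 26 and 31 without replicate 1 and 2 of fc2 at 30 min, and 34 and 46 without replicate 1 and 2 of wt. The seed-maturation mean was 7.95 and 5.58 in these fc2 arrays and 8.55 and 8.79 in wt, and with it as a covariate the count was 39. In fc1 46 were lower and 5 higher, against 8.73% and 9.68%, with a median of -0.165 beside -0.05. The fc1 count was 21 and 14 without its replicate 1 and 2, and 11 without replicate 1 of wt at 30 min; 1 of the 46 was lower by at least 2-fold, against 19 in fc2 and 115 in flu.

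**Figure D4:**
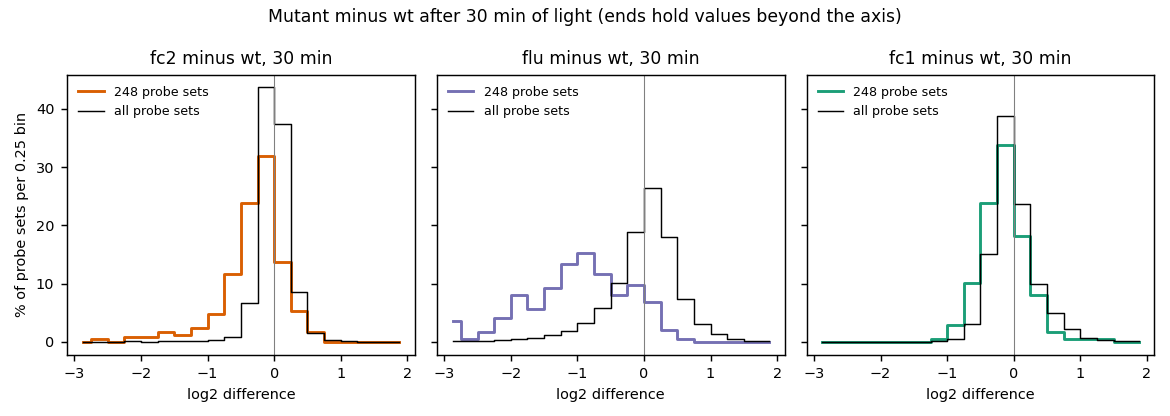
Distribution of the log2 difference from wt after 30 min of light in fc2, flu and fc1, as the percentage of probe sets per bin of 0.25, for the 248 members (coloured) and all 22217 probe sets (black); the end bins also hold values beyond the axis. The member curve lies furthest left in flu (median -0.965), has a tail to the left in fc2 (median -0.2325) and lies nearest to the curve of all probe sets in fc1 (median -0.165).

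AT5G42760 was the member that fc2 missed most at 30 min. It had 4.15 and 4.11 in fc2, 3.83 and 4.14 in flu, 6.19 and 6.28 in fc1, and 6.74 and 7.01 in wt. The fc2 difference from wt was -2.745 ± 0.14 (limma adjusted p = 1.045e-08), the flu difference was -2.89 (limma adjusted p = 1.388e-10) and the fc1 difference was -0.64 (limma adjusted p = 0.008217). The fc2 and flu arrays overlapped near the dark level, and fc1 lay just under wt.

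Among probe sets naming 1 gene, the next largest fc2 differences at 30 min were those of AT3G52740, AT3G30460 and AT3G56260. AT3G52740 had 5.92 and 5.98 in fc2, 6 and 6.02 in flu, 7.17 and 7.11 in fc1, and 8.12 and 7.82 in wt. It was lower than wt by 2.02 in fc2 (-2.02 ± 0.14, limma adjusted p = 2.02e-07), and flu gave -1.96 and fc1 -0.83. For AT3G30460 the differences were -1.865 ± 0.22 in fc2 and -1.78 in flu (limma adjusted p = 5.807e-05 and 4.262e-06), and for AT3G56260 they were -1.655 ± 0.11 and -1.99 (limma adjusted p = 1.47e-07 and 5.695e-10). AT4G24700 had 6.04 and 6.07 in fc2, 5.13 and 5.58 in flu, 7.12 and 7.15 in fc1, and 7.19 and 7.39 in wt, with an fc2 difference of -1.235 (limma adjusted p = 0.0003161). In AT3G52740 and AT4G24700 every fc2 and flu array lay below every fc1 and wt array at 30 min.

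The largest flu differences from wt at 30 min included AT5G55620, with -4.12 ± 0.19 (limma adjusted p = 5.603e-11), and AT1G27480, with -3.04 ± 0.19 (limma adjusted p = 2.422e-09). AT5G55620 also differed in fc2, at 8.02 and 8.11 against 8.95 and 9.18 in wt (-1 ± 0.19, limma adjusted p = 0.00817). That call was lost without either fc2 array (limma adjusted p = 0.1147 and 0.0551). AT1G23205 was one of the 2 members called higher in flu than in wt at 30 min, with 5.86 and 5.97 in flu, against 5.45 and 5.3 in wt (0.54 ± 0.17, limma adjusted p = 0.01649). Its call was lost without replicate 2 of flu (0.09644) or of wt (0.1152) at 30 min.

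The difference between the mutants was tested directly at 30 min. Members were lower in flu than in fc2 in 162 cases and higher in 9, against 22.5% and 25.4% of all probe sets, with a median of -0.705. The 30 min light response was lower in flu than in fc1 for 174 members and higher for 6, against 16.4% and 16% of all probe sets, with a median of -1.0975. For fc2 against fc1 the response was lower for 29 members and higher for 0, against 0.599% and 0.374%, with a median of -0.325. At an unadjusted p under 0.05 it differed for 94 members, beside 1410 of all 22217 probe sets. Those 2 comparisons share the fc1 arrays. Of the 216 probe sets lost in flu alone, 154 had a lower response in flu than in fc1 (71.3%, beside 70.2% of the members). In fc2 25 of them did (11.6%, beside 11.7%), and 151 were lower in flu than in fc2 (69.9%, beside 65.3%). These results are therefore not particular to the members. The count of 29 members was 16 to 19 when any one of 6 arrays was left out. These were either array of dark fc2, either of dark fc1, replicate 1 of fc2 at 30 min or replicate 2 of fc1 at 30 min.

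Dark levels were compared with those of fc1. In dark fc2 against dark fc1, 31 members were higher and 1 lower, against 0.828% and 0.563% of all probe sets, with a median of 0.215. Leaving out replicate 1 or 2 of dark fc2 reduced the fc2 count to 10 or 11, and leaving out replicate 1 or 2 of dark fc1 reduced it to 16 or 9. It was 16 with the seed-maturation mean as a covariate, which was 5.84 and 5.85 in dark fc2, against 8.31 and 8.43 in dark fc1. In dark flu against dark fc1, 73 members were higher and 7 lower, against 7.1% and 6.64%, with a median of 0.2475. Leaving out replicate 1 of dark flu reduced the flu count to 45, and leaving out replicate 2 of dark fc1 to 40. Against dark wt, whose arrays the rule used, the median member difference was 0.0325 in fc2, 0.0325 in flu and -0.21 in fc1.

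The flavonoid list held the most members of the fixed lists, in a small number of measured genes. Of 6 measured members of 19 listed, 5 were light-induced in wt and 3 belonged to the set: CHIL, UGT78D1 and AT4G14090. The list's median difference from wt at 120 min was -1.0875 in fc2 and -1.395 in flu, beside 0.01 and 0.06 over all probe sets. CHIL, a chalcone isomerase-like protein that aids flavonoid synthesis, had 8.51 and 8.54 in fc2, 6.15 and 6.03 in flu, 9.86 and 9.94 in fc1, and 10.1 and 10.14 in wt at 120 min. In the dark it was higher in fc2 and flu than in fc1, which was itself low. Dark wt had 7.16 and 7.04, and the differences from it were 0.485 in fc2, 0.915 in flu and -0.79 in fc1. Dark fc2 had 7.64 and 7.53 and dark flu 8.11 and 7.92, against 6.38 and 6.24 in dark fc1 (1.275 ± 0.12 and 1.705 ± 0.12, limma adjusted p = 1.843e-05 and 1.536e-07). In flu it fell by 1.385 within 30 min (limma adjusted p = 9.562e-08).

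UGT78D1, a flavonol glycosyltransferase, had 5.6 and 5.93 in fc2, 4.42 and 3.92 in flu, 7.94 and 8.4 in fc1, and 8.09 and 7.43 in wt at 120 min. The fc1 rise was 2.075 ± 0.23 (limma adjusted p = 8.815e-07), while flu fell by 1.45 in the first 30 min (limma adjusted p = 4.765e-05). AT4G14090 was dimmer, with 4.19 and 4.38 in fc2, 4.1 and 4.09 in flu, 5.02 and 5.22 in fc1, and 5.04 and 5.67 in wt. It rose by 1.07 ± 0.18 in fc1 (limma adjusted p = 0.0001365) and did not move by 30 min in a way the test called. The remaining light-induced genes of the list, UGT84A1 and UGT78D2, missed the set through fc2, which was only 0.35 and 0.26 below wt at 120 min (-0.35 and -0.26). DFR, dihydroflavonol reductase, met neither the wt nor the flu condition, with a wt rise of 0.855 and a flu difference from wt of -0.785.

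Other sugar transferases were chosen here by name after the values were seen. Of 72 probe sets that the annotation's own names mark as cytochrome P450s or glycosyltransferases, 12 were light-induced and 4 were members: UGT78D1 of the flavonoid list, UGT76E11, UGT71B1 and UF3GT. That share is near the 248 of 976 over all light-induced probe sets and is no result about the members. UF3GT, an anthocyanin glycosyltransferase, had 5.59 and 5.72 in fc2, 5.09 and 5.54 in flu, 6.97 and 7.38 in fc1, and 7.29 and 8.19 in wt at 120 min. It rose by 1.84 in fc1 (limma adjusted p = 7.979e-06), and fc2 and flu overlapped with the dark range of 5.21 to 5.69. UGT76E11 had 6.3 and 6.51 in fc2, 4.29 and 4.09 in flu, 8.19 and 8.08 in fc1, and 7.81 and 8.07 in wt. Here fc2 was above its dark arrays (5.1 and 4.83) and flu below its own (5.41 and 5.56). UGT84A3, recognised by its symbol alone, which joins glucose to phenylpropanoids, rose by 1.64 in fc1 (limma adjusted p = 6.618e-06), beside 2.22 for UGT71B1 (6.158e-10).

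The few photosynthesis genes that could be matched to a probe set were mostly outside the set. Of 51 listed photosystem and Calvin cycle genes 10 were measured. None of the 10 was a member, although their median difference from wt at 120 min was -0.825 in fc2 and -3.93 in flu. Their wt rise was below 1 in each case, and only CaS, at -1.38, was at least 1 below wt in fc2. The wt rises ran from 0.08 in TROL to 0.995 in PSBY, so some of these genes missed the set narrowly. PSBY had an fc2 difference from wt of -0.93, RCA had a wt rise of 0.825 and an fc2 difference of -0.945, and CaS had a wt rise of 0.83. PSBY, RCA and CaS would meet the rule at a threshold of 0.8. All 10 were lower than wt in flu at 30 min and 0 in fc2. None of the 9 measured of 34 listed tetrapyrrole synthesis genes was a member either, with medians of -0.29 in fc2 and -2.435 in flu. Of 21 listed light-harvesting genes 3 were measured. LHCB4.3, a minor antenna protein of photosystem II, was a member. LHCB4.1 and LHCB4.2 had wt rises of 0.135 and 0.355 and fc2 differences from wt of -0.65 and -0.775. The 127 members with no listed gene could not be placed on any list.

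LHCB4.3 had 7.94 and 8.06 in fc2, 7.48 and 7.53 in flu, 9.24 and 9.38 in fc1, and 9.75 and 9.74 in wt at 120 min. It was among the few members that rose in flu by 30 min, with 7.92 and 7.85, against 6.99 and 7.25 in dark flu (0.765 ± 0.11, limma adjusted p = 1.932e-05). At that time all 3 mutants were below wt, which had 8.42 and 8.4: fc2 by 0.53 (-0.53, limma adjusted p = 0.01504), flu by 0.525 (-0.525, 0.0009958) and fc1 by 0.46 (-0.46, 0.01057). The fc2 call was lost without either fc2 array or replicate 1 of wt (limma adjusted p = 0.2204, 0.06284 and 0.111), and the flu call under scaling to 2 reference genes (0.07793).

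HPR, the hydroxypyruvate reductase of photorespiration, was 1 of 2 measured photorespiration genes and the only one of them in the set. It had 11.02 and 10.89 in fc2, 8.2 and 7.63 in flu, 12.58 and 12.67 in fc1, and 12.7 and 12.46 in wt at 120 min. In flu it had 9.77 and 9.35 at 30 min, against 11.45 and 11.61 in wt (-1.97 ± 0.15, limma adjusted p = 2.541e-08), while the fc2 difference at 30 min was -0.28 (limma adjusted p = 0.4856). AT1G11860, the other, was lower than wt in flu by 2.54 at 120 min (-2.54) and was induced in wt by 0.26. AOR, an alkenal reductase that detoxifies reactive carbonyls, was chosen by its symbol and had 9.88 and 9.96 in fc2, 8.03 and 7.63 in flu, 10.95 and 11.17 in fc1, and 11.23 and 11.13 in wt. For AOR flu was below wt by 1.6 at 30 min (-1.60, limma adjusted p = 4.284e-08).

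A transporter and a cold-regulated gene shared a dark excess in flu. AT3G21670 at 120 min had 8.93 and 9.33 in fc2, 7.09 and 6.26 in flu, 10.83 and 10.58 in fc1, and 10.76 and 10.69 in wt. In darkness it had 7.71 and 7.62 in fc2 and 8.84 and 8.64 in flu, against 6.43 and 6.62 in fc1 (1.14 ± 0.21 and 2.215 ± 0.21, limma adjusted p = 0.01045 and 4.393e-06). COR15A, a chloroplast-targeted protein of cold acclimation, had 6.75 and 6.29 in fc2, 4.29 and 3.5 in flu, 7.22 and 6.56 in fc1, and 7.32 and 8.19 in wt at 120 min. Dark flu had 5.16 and 6.32, against 3.92 and 3.88 in dark fc1 (1.84 ± 0.33, limma adjusted p = 0.00154). At 30 min all genotypes lay between 3.87 and 4.5. The cold list had 3 measured genes, all light-induced in wt: COR47 was kept in both mutants and COR15B was at least 1 lower in flu alone.

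The symbols of the other named members point to varied roles, and they too were picked by having a symbol. THI2.2, a thionin of the antimicrobial peptide family, had 6.35 and 7.02 in fc2, 4.83 and 5.83 in flu, 8.41 and 9.29 in fc1, and 9.1 and 8.3 in wt at 120 min. IQD24, which carries a calmodulin-binding IQ domain, had 4.97 and 5.1 in fc2, 3.78 and 3.88 in flu, 7.17 and 7.48 in fc1, and 7.23 and 6.88 in wt. XTH32, a xyloglucan-modifying wall enzyme, had 9.14 and 9.34 in fc2, 5.7 and 6.4 in flu, 10.31 and 10.14 in fc1, and 10.37 and 10.11 in wt. All 3 rose in fc1, by 3.88, 2.31 and 1.77 (limma adjusted p = 9.521e-08, 5.366e-10 and 2.748e-07). BGLU40, a beta-glucosidase, and ALC, the basic helix-loop-helix factor ALCATRAZ known from fruit opening, rose in fc1 by 1.1 and 1.64 (limma adjusted p = 7.675e-06 and 2.18e-06). At 30 min flu was lower than wt by 1.98 in XTH32 (-1.98, limma adjusted p = 1.291e-07) and by 0.72 in IQD24 (-0.72, 0.0006211), and THI2.2 gave -0.40 (0.3929).

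Some members lay close together in the gene order of TAIR10.1, which served here for names and order alone. On chromosome 4, AT4G15680 and AT4G15690 were adjacent and AT4G15660 was separated from AT4G15680 by 1 gene. On chromosome 2, AT2G36835, AT2G36870 (XTH32) and AT2G36885 had 3 and 1 genes between them. The chromosome 4 genes also shared a high dark level in flu: AT4G15660 had 4.66 and 4.81, against 3.27 and 3.29 in dark fc1 (1.46 ± 0.21, limma adjusted p = 0.0002659). AT4G15680 had 7.58 and 7.71, against 6.1 and 6.18 (1.5 ± 0.17, limma adjusted p = 3.71e-05), and AT4G15690 gave 1.06 (0.004768). The last call was lost without replicate 1 of dark fc1 (limma adjusted p = 0.05208). Neighbouring genes of like sequence can share probes, and this was not examined here.

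Several members sat at the edge of the rule. Just inside were AT3G26630, with an fc2 difference from wt of -1, AT2G04790, with a wt rise of 1, and AT4G15690, with an fc2 difference of -1. Just outside were AT5G46450 and AT3G17800, each with an fc2 difference of -0.995, and AT3G05600, with a wt rise of 0.995. AT3G05600 at 120 min had 6.51 and 6.85 in fc2, 4.17 and 4.12 in flu, 7.95 and 8.23 in fc1, and 7.76 and 8.14 in wt, a profile much like that of the members.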

How the data were processed

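Log2 signals as deposited were used without further normalization. The authors obtained them with RMA (background correction, normalization and summary of probes), per the submitters' processing notes, with a version not given in the sources used here. Probe sets were named through GEO's platform annotation and the TAIR10.1 gene table. Of 22217 probe sets, 13171 named 1 gene, 482 several and 8564 none.

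Group means were estimated jointly from the 24 arrays in limma 3.58.1 under R 4.3.3, with empirical Bayes moderation. Each of 13 contrasts was tested two-sided and adjusted by Benjamini-Hochberg over all probe sets. An adjusted p under 0.05 was called. The rule used 8 arrays (wt at 0 and 120 min, fc2 and flu at 120 min), so contrasts with those arrays were described and not tested. The fit was tested on simulated data. Tables and figures were made with matplotlib 3.10.9 and pandas 2.3.3 in Python 3.11.15.

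The members, 20 gene lists and 8 keyword lists were chosen with earlier results of these data known. Named genes, from probe sets with 1 gene, were the 12 largest mean shortfalls in fc2 and flu, up to 4 members per gene list, the 4 largest and 4 smallest fc1 rises, the 4 lowest and 4 highest called differences of fc2 and of flu from wt at 30 min, and the 3 genes on either side of the rule's edge. Others named carry a symbol, adjoin another member or make up a small count, and were chosen after their values were seen.

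Alternatives were scaling to 2 reference genes (AT2G28390 and AT4G34270), quantile normalization, leaving out the dimmest 40% of probe sets, robust variances with a trend, a block for replicate number, the seed-maturation mean as a covariate, each array left out, a further 2-fold condition, and rule thresholds of 0.8 and 1.5.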

Additional observations from a re-analysis of the deposited data

Results flagged for a closer look

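At 30 min of light the responses of the mutants differed from one another over the members by the test of the difference itself. The response was lower in flu than in fc1 for 174 of 248 members and lower in fc2 than in fc1 for 29. The level was lower in flu than in fc2 for 162. The 216 probe sets lost in flu alone gave 154, 25 and 151 in that order, so these differences are not particular to the members. Groups of 2 arrays are too small to test for a single outlying array.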

How the results depend on the processing

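Over 14 counts, 164 values were recomputed under the alternatives, and 128 were within 1.5 times the reported count. The number of members was 388 at a rule threshold of 0.8, 82 at 1.5 and 384 under reference-gene scaling, which held all 248. Requiring a 2-fold change as well gave 30 members higher in fc1 at 30 min against darkness, 2 called in fc2 and 79 lower in flu at 30 min against darkness. Against wt at 30 min it gave 19 lower in fc2, 115 in flu and 1 in fc1, and it gave 72 lower in flu than in fc2. In darkness it left 10 higher in fc2 and 19 higher in flu than in fc1, and 18 lower in the fc2 minus fc1 response. With the seed-maturation mean as a covariate, 9 members were called in fc2 at 30 min against darkness and 16 were higher in dark fc2 than in dark fc1, and reference-gene scaling gave 80 for those dark levels. Reference-gene scaling moved the median of all probe sets to 0.3325 in flu minus wt at 30 min, to 0.2525 in fc1 at 120 min minus darkness and to 0.18 in wt at 120 min minus darkness. Under it 166 members were lower in flu than in wt at 30 min. The scaling subtracts the mean of the 2 reference genes from each array, so these shifts follow from the differences of those genes. In flu minus wt at 30 min AT4G34270 gave 0.045 and AT2G28390 gave -0.57 (limma adjusted p = 0.000248). At 120 min minus darkness they gave -0.14 and -0.375 in fc1, and -0.22 and -0.2 in wt. Why the 2 genes differed was not tested.

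Leaving out each array of a comparison in turn, which assumes that a lone array varies like the other groups and lowers the number of arrays, gave these ranges. In fc1, 243 to 244 members were higher at 120 min and 55 to 64 at 30 min against darkness, and 233 to 237 at 120 against 30 min. At 30 min against darkness, 2 to 3 were called in fc2 and 145 to 155 were lower in flu. Against wt at 30 min, 26 to 46 were lower in fc2, 173 to 179 in flu and 11 to 42 in fc1, and 150 to 157 were lower in flu than in fc2. In darkness, 9 to 16 were higher in fc2 and 40 to 59 in flu than in fc1. The 30 min response was lower in fc2 than in fc1 for 16 to 21 members and in flu for 163 to 170. The members numbered 203 to 330.

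With the replicate number as a block, 245 members were higher in fc1 at 120 min, 187 were lower in flu and 44 in fc2 than in wt at 30 min, and no count moved by over 1.5 times. Over 66 pairs of groups the deviations of same-numbered arrays correlated between -0.536 and 0.4 (median -0.008), and 19 pairs exceeded 0.1. The median gave no sign of a pairing common to all groups, but this check cannot exclude pairing among some of them. Of 629 values of named genes, 604 kept direction and call, 25 lost the call and 0 reversed. Signals near the array's floor limit small differences.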
